A study of Mus musculus with 4 samples.

Results

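The cytosolic ribosome is the machine that translates messenger RNA outside mitochondria. Its small subunit reads the message and its large subunit joins amino acids, and each holds a fixed set of proteins, named Rps and Rpl after the subunit. Ribosomal protein mRNAs are among the most abundant of any cell, many start at a C followed by a run of C and T (the 5′ terminal oligopyrimidine, or TOP, motif) that ties their translation to growth signals, and in neurons they are found in dendrites and axons as well as in the cell body.

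The genes described here are the cytosolic ribosomal protein genes, taken by symbol: names beginning Rpl or Rps followed by a digit, with Rplp0 to Rplp2 and Rpsa. Left out were 10 symbols of the Rps6k kinases and 3 names holding -ps, the usual mark of a pseudogene. The rule found 85 of the 19090 genes in the table. Of these, 46 encode large subunit proteins and 31 small subunit proteins, and 6 are paralogues or retrogenes of the standard genes (Rpl3l, Rpl22l1, Rpl36al, Rpl39l, Rps27l and Rps27rt). The other 2 have names of this form but encode other proteins: Rps19bp1, which binds Rps19, and Rpl7l1, a factor of ribosome assembly related to Rpl7. Levels are in CPM, a gene's count of UMIs (unique molecular identifiers, which tag single captured RNA molecules) scaled to a common total per section. A mean of at least 5 CPM was reached by 83 members. Rpl3l, the form known from striated muscle, lay between 0.23 and 0.52 CPM, and Rpl39l, known from the testis, between 0.32 and 0.42 CPM in the 4 sections.

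The data are Visium spatial transcriptomes, in which RNA of a tissue section is captured from the poly(A) end on an array of barcoded spots, each spanning parts of several cells. There was 1 brain hemisphere section, 10 µm thick and from bregma 1 to -2 mm, for each of 4 genotypes of male mice aged 9 months: wild-type (WT), Dp16, 5xFAD, and 5xFAD with Dp16 (5xFAD-Dp16). Runs of 4 values are printed with the sections in that order, called section order below. The Dp16 animals have an extra copy of the chromosome 16 stretch that matches much of human chromosome 21. 5xFAD mice express mutant human transgenes of inherited Alzheimer's disease from the neuronal Thy1 promoter and form amyloid plaques, and 5xFAD-Dp16 mice carry both kinds of allele. The labels name C57BL/6J for the wild-type mouse, and the strain of the other 3 animals was not used here. With 1 section per genotype, a difference between genotypes, between animals and between sections cannot be told apart, and no p-value was computed for it. The sections held 2347 to 2941 spots and 26049860 to 36461389 UMIs, and 1996 spot barcodes occurred in all 4 sections, since the arrays draw their barcodes from a fixed list. In summed RNA, fewer cells of a type and less RNA per cell cannot be told apart.

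The members were spread over 19 chromosomes. Only Rpl35a, Rpl24 and Rpl39l were on chromosome 16, and none of these lay inside the duplicated stretch, taken as Lipi to Zbtb21 (chr16:75540514-97962627, RefSeq, GRCm38.p6).

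Start sites from RefSeq (GRCm38.p6) were matched for 65 of the 85 members, and 28-base windows, 12 bases before the annotated start and 16 from it, are given 5′ to 3′ for the most abundant members found there and for members whose levels are described further down. Capitals mark a C followed by at least 4 C or T, within 5 bases of the start, and the RNA begins at base 13 of each line.
Rpl41: acgggccggctcggaagtgacgacaccg
Rps21: cgaggacccgccCTCCTgcccaatagtg
Rpl37: ttcctgggcggaagcttatccacaggaa
Rpl38: ggaagcctcgttCTTTCCCCgttctctt
Rpl35: ccccgccctttcCTCTTTCTCTCgaacc
Rps27: tccgctttcgctCCTTTCCggcggtgac
Rps27rt: acttatcccttgCTTTCCggcggtgacg
Rpl22l1: cggcgcaagcccgttCTCTTCCCacggc
The windows are at chr10:128549153-128549180 (minus strand) for Rpl41, chr2:180257367-180257394 (plus) for Rps21, chr15:5116601-5116628 (plus) for Rpl37, chr11:114668568-114668595 (plus) for Rpl38, chr2:39005116-39005143 (minus) for Rpl35, chr3:90213633-90213660 (minus) for Rps27, chr9:114982724-114982751 (minus) for Rps27rt and chr3:28805496-28805523 (plus) for Rpl22l1. Rps21 has another annotated start further on, without the run. Rplp1 and Rps29 were among the most abundant members without a window.

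Rps21, Rpl38, Rpl35, Rps27 and Rps27rt carried the run exactly at the annotated start, and Rpl22l1 carried it 3 bases further on. Rpl41 and Rpl37 had no such run within 5 bases. Over the members, 14 of 65 (21.5%) had the run at an annotated start, against 3.01% of the 27025 genes of the table, and 30 (46.2%) had it within 5 bases, against 21.2%. The letters CCGGAAG, searched on both strands of the 300-base window from 250 before to 50 after the start, were found for 26 members (40%) and for 9.93% of all genes. These matches are letters in a window and not mapped sites. Rps27 and its retrogene Rps27rt share 15 bases in a row there (ctttccggcggtgac), and their transcripts are near-identical, so reads may have been divided between them in counting.

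The members took 8.45% (8.44 to 8.46) of all UMIs in the wild-type section and 9.32% (9.31 to 9.33) in the Dp16 section. In the 5xFAD section they took 9.97% (9.96 to 9.98), and 10.06% (10.05 to 10.07) where both alleles were present. The ranges are exact binomial intervals and cover counting error only. The wild-type share was the lowest and the 5xFAD-Dp16 share the highest. Within each section the share was lower in deeper spots. It went from 9.93% in the shallowest of 4 equal depth classes of wild-type spots to 8.01% in the deepest, and from 12.3% to 9.10% in 5xFAD-Dp16. Median depth per spot was 11639, 10448.5, 9404 and 11144 UMIs in section order, and its part in the differences between sections was not tested.

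Among large subunit genes Rplp1, an acidic stalk protein that helps recruit elongation factors, had the highest level. It stood at 3243, 3462, 3636 and 3863 CPM in section order. Rpl41, which encodes a very short basic peptide, followed with 2579, 2957, 3381 and 3340 CPM, then Rpl37 (2004, 2249, 2555 and 2425) and Rpl38 (1924, 2295, 2653 and 2196). The leading small subunit genes were Rps29 (2367, 2708, 3377 and 2589 CPM) and Rps21 (2318, 2715, 3171 and 2826), then Rps24 (1810, 1993, 2087 and 2230) and Rps27a (1472, 1587, 1660 and 1772). Rps27a is made as a fusion with ubiquitin. UMIs are counted at the transcript end and are not scaled by length.

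The other stalk proteins were lower, with Rplp2 at 872, 948, 1013 and 987 CPM and Rplp0, the stalk base, at 431, 460, 507 and 514 CPM. Rpsa, also known as a laminin receptor, was at 1003, 1075, 1077 and 1168 CPM. Of the paralogues, Rpl22l1 was at 675, 746, 710 and 832 CPM, Rpl36al at 442, 467, 465 and 507, Rps27l, a p53 target, at 96.2, 131, 112 and 124, and Rps27rt at 98.6, 65.4, 84.7 and 127. The 2 genes for other proteins stayed near 50 CPM, with Rps19bp1 between 47.6 and 54.0 and Rpl7l1 between 45.4 and 47.3 CPM.

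**Figure D1:**
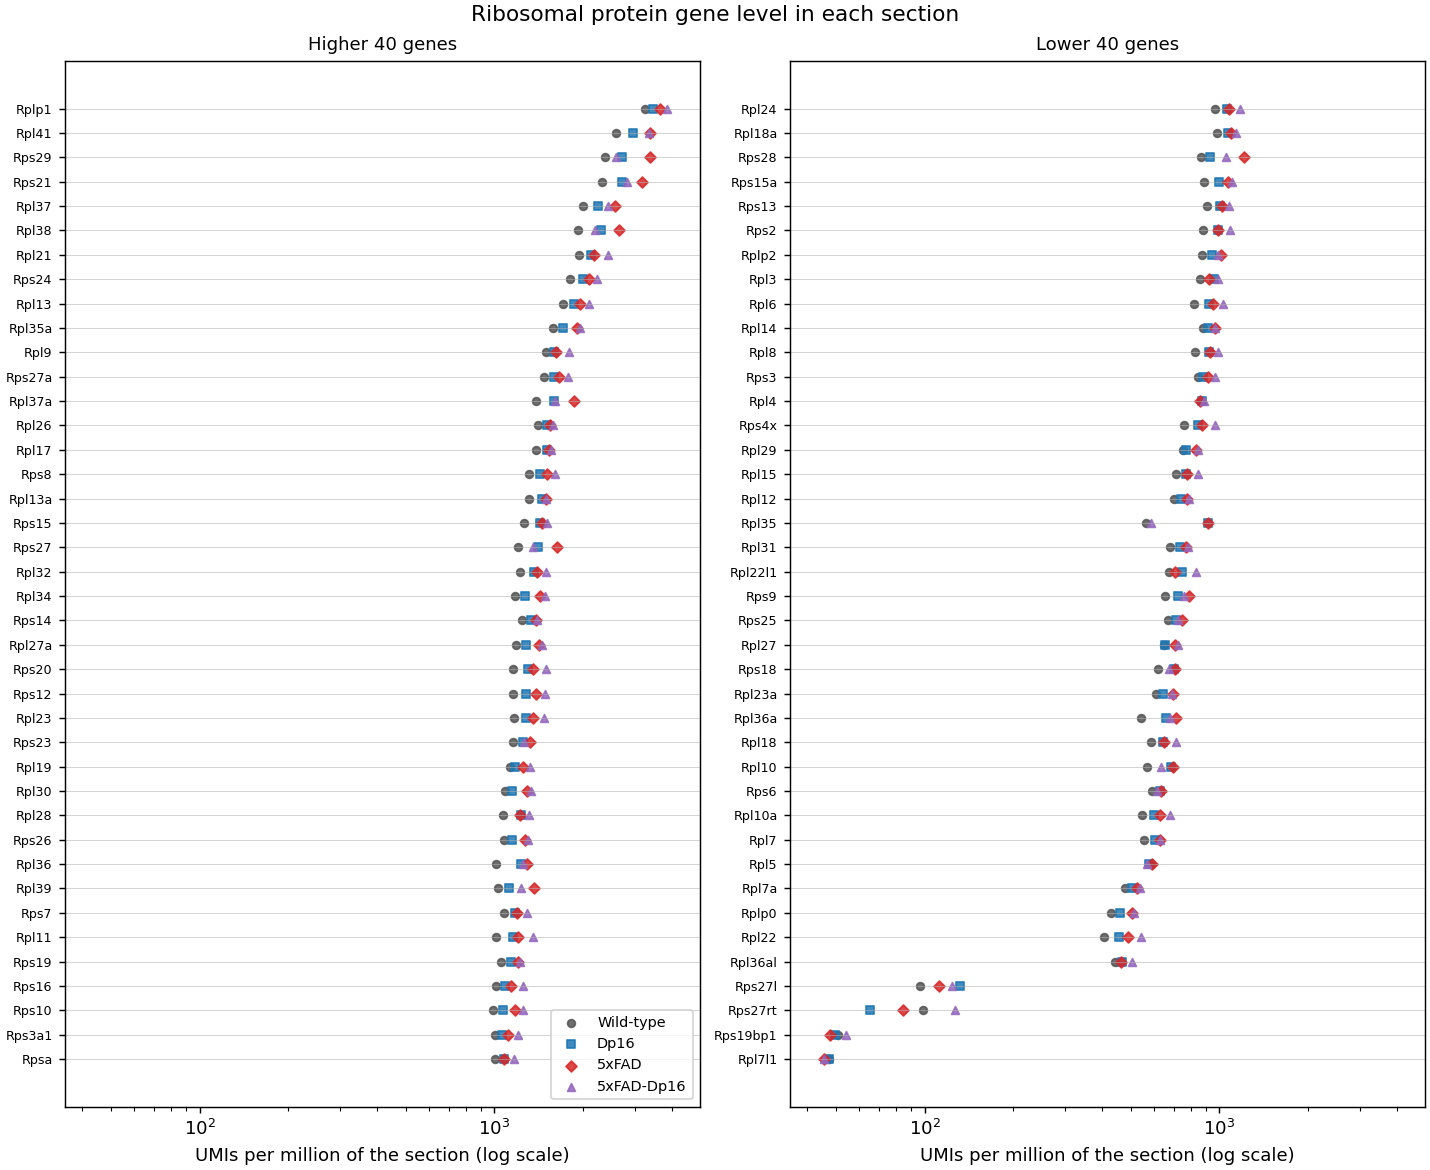
Level of 80 of the 83 members at 5 CPM or more, in CPM on a log axis, with 1 mark per section. Over all 83 members wild-type is the lowest for 78, and the highest is 5xFAD-Dp16 for 59 and 5xFAD for 22.

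The wild-type section had the lowest level of 78 of the 83 members (94%), which was so for 17.3% of all 11033 genes at 5 CPM or more. For 50 members (60.2%) the levels ran upward in section order, a pattern that 3.53% of all genes had. The 5xFAD section had the highest level of 22 members (26.5%, against 14.4% of all genes). Among these were Rps29, Rps21, Rps28, Rps27, Rpl38, Rpl37, Rpl37a, Rpl39, Rpl41, Rpl5, Rps6, Rps9 and Rpl10. The 5 members that were not lowest in wild-type were Rpl4, Rpl5, Rps27rt, Rps19bp1 and Rpl7l1.

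For a pair of sections, a gene's ratio of CPM is given on the log2 scale relative to the median of all 11033 genes, because that median itself was -0.13, -0.07, -0.08 and -0.03 in the 4 pairs. In Dp16 over wild-type the members' median was 0.26, and 82 of 83 lay above the median gene. In 5xFAD-Dp16 over 5xFAD, the Dp16 comparison that shares no section with it, the median was 0.12. Higher by 1.2-fold or more in Dp16 over wild-type were 38 members (13.6% of all genes) and lower was 1, Rps27rt (10.8%). In 5xFAD-Dp16 over 5xFAD 2 were higher, Rps27rt and Rpl22l1 (7.7%), and 2 lower, Rpl35 and Rps29 (6.74%). The second pair thus held a count of higher members below the background. Large and small subunit genes had medians of 0.26 and 0.26 in the former pair and 0.11 and 0.15 in the latter.

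For the 5xFAD comparison the members' median was 0.27 without the duplication (5xFAD over wild-type). It was 0.15 with it (5xFAD-Dp16 over Dp16). Higher by 1.2-fold or more were 44 members in 5xFAD over wild-type (9.54% of all genes) and none was lower (8.22%). In 5xFAD-Dp16 over Dp16 the members higher were 3, among them Rps27rt and Rpl22 (6.05%), and the 1 lower was Rpl35 (6.92%). Above the median gene in both pairs were 72 of 83 members for each of the 2 comparisons, which was so for 32.3% of all genes for Dp16 and 28.9% for 5xFAD. Genes of like abundance also leaned upward: the 216 other genes at 471 CPM or more, mitochondrial genes aside, had medians of 0.14 in Dp16 over wild-type, 0.13 in 5xFAD-Dp16 over 5xFAD, 0.09 in 5xFAD over wild-type and 0.06 in 5xFAD-Dp16 over Dp16.

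The counts in the pairs with wild-type were smaller when the thalamus was left out. The members' medians in these pairs (0.26 and 0.27) lay next to the 1.2-fold mark (log2 0.263), so the counts move with small shifts. In Hippocampus 70 members were higher in Dp16 over wild-type (20.8% of all genes) and 72 in 5xFAD over wild-type (20.9%). In Hypothalamus 3 and 4 were (24.3% and 25.5%). In the region labelled Thalamus the share of ribosomal protein UMIs was 6.40, 9.38, 9.504 and 9.73% in section order, so wild-type lay apart. Without that region, a choice made after the data were seen, the members' median was 0.16 in Dp16 over wild-type, with 5 members higher by 1.2-fold, a share below that of all genes (12.3%). In 5xFAD over wild-type it was 0.19, with 19 higher (9.23% of all genes). In 5xFAD-Dp16 over Dp16 it left 5 higher (7.13%). Without setting ratios against the median gene, 5 members were higher in Dp16 over wild-type (6.59% of all genes) and 18 in 5xFAD over wild-type (5.72%). The make-up of the thalamic spots differed too: 80.5% of the wild-type ones were in expression cluster 1 of the submitters, against 34.9 to 49.2% in the other sections. Within cluster 1 the shares were 5.97, 6.43, 7.33 and 6.36% in section order, so wild-type was still lowest. The part of this make-up in the whole-section values was not tested beyond leaving the region out.

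By region the members' median in Dp16 over wild-type ranged from -0.08 in Hypothalamus to 0.69 in Thalamus, with 0.37 in Hippocampus. In 5xFAD over wild-type it ranged from 0.04 in Hypothalamus to 0.57 in Thalamus, with 0.40 in Hippocampus. In 5xFAD-Dp16 over 5xFAD the region medians lay between -0.05 and 0.27 and in 5xFAD-Dp16 over Dp16 between -0.11 and 0.46, highest in both for the region labelled Cortex CTXsp. Choroid plexus and ependyma markers in Cortex CTXsp were at 99.7, 47710, 43783 and 9414 CPM in section order, and their part in these values was not tested. Markers of choroid plexus and ependyma were also higher in Dp16 and in 5xFAD than in wild-type, with list medians of 2.07 and 1.43, and all 8 were higher by 1.2-fold in both. The 10 glutamatergic neuron markers had list medians of -0.22 and -0.16 in these pairs, and the 9 oligodendrocyte markers -0.22 and -0.15. In Dp16 over wild-type, meningeal and smooth muscle markers had a median of 0.95 (6 of 6 higher) and blood markers -1.32 (4 of 4 lower). In 5xFAD over wild-type, microglia markers had 0.64 (8 of 9 higher) and inhibitory neuron markers -0.36 (7 of 8 lower). The part of these cell types in the members' ratios was not tested. Leaving out expression clusters 12 and 13 gave a member median of 0.24 in Dp16 over wild-type.

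Among the members that ranked highest for Dp16 in both pairs were Rpl22l1, Rpl11, Rpl21 and Rps20. Rpl11, which with Rpl5 and the 5S rRNA can bind the p53 regulator Mdm2, was at 1015, 1156, 1198 and 1352 CPM in section order. Its relative ratios were 0.32 and 0.25. Rpl22l1 had 0.27 and 0.30. Lowest were Rpl5, Rpl7l1, Rpl4, Rpl27 and Rpl29, and Rpl5 was nearly level at 586, 577, 589 and 571 CPM. Thus Rpl5 and Rpl11, partners in the same particle, stood at opposite ends of the list.

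For 5xFAD, Rpl22, Rps10, Rpl11 and Rpl34 were among the highest in both pairs. Rpl22, an RNA-binding protein needed for normal T-cell development, was at 408, 457, 491 and 542 CPM in section order, with relative ratios of 0.35 in 5xFAD over wild-type and 0.27 in 5xFAD-Dp16 over Dp16. Lowest were Rpl7l1, Rpl4, Rpl5, Rps19bp1 and Rpl36al. Rpl4 was at 864, 873, 862 and 885 CPM in section order.

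**Figure D2:**
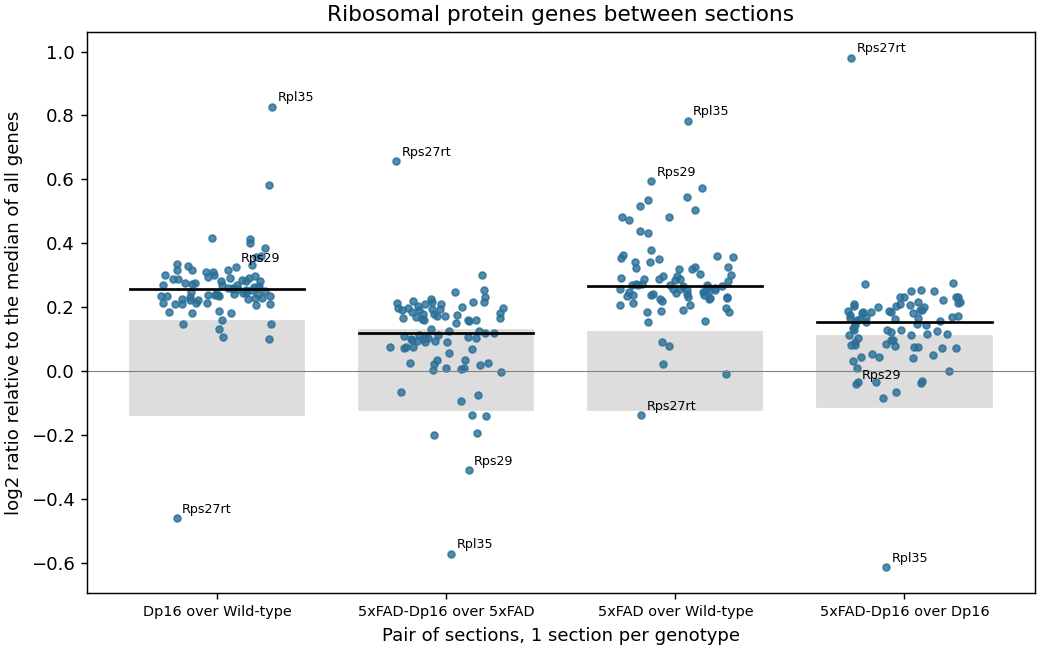
log2 ratio of CPM relative to the median of all genes for the 83 members in each pair of sections. Black lines are member medians (0.26, 0.12, 0.27 and 0.15 from left to right) and grey bands run from the lower to the upper quartile of all genes, and Rpl35, Rps27rt and Rps29 are named.

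Rpl35 stood apart from every other member. It encodes a large subunit protein at the exit of the peptide tunnel, from chr2:39001581-39005131. It was at 563, 912, 916 and 586 CPM in section order, so the Dp16 and 5xFAD sections lay together, above the other 2. Relative ratios were 0.83 in Dp16 over wild-type and -0.57 in 5xFAD-Dp16 over 5xFAD, and 0.78 in 5xFAD over wild-type and -0.61 in 5xFAD-Dp16 over Dp16. The same division held in all 12 regions compared, with 761 to 1126 CPM in the Dp16 and 5xFAD sections and 406 to 879 CPM in the other 2. In Hippocampus, for example, the 4 values were 526, 945, 969 and 575 CPM.

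Dp16 and 5xFAD both above wild-type and 5xFAD-Dp16 was seen for 7 of the 83 members (8.43%) and for 8.34% of all genes, so the order as such was no more frequent among the members. The others were Rps27, Rps29, Rpl38, Rps6, Rps18 and Rpl10. The double difference is the 5xFAD log2 ratio on the Dp16 background less the one without the duplication. It was -1.40 for Rpl35, -0.64 for Rps29 and -0.58 for Rpl38, the 3 lowest. The members' median was -0.11, and that of all genes 0.00. Rps29, whose 5xFAD section held 3377 CPM against 2367 to 2708 elsewhere, was highest in 5xFAD in 11 of 12 regions. Rpl38, needed in the mouse embryo for translation of Hox mRNAs, was highest in 5xFAD in 11 of 12 regions as well.

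The highest double differences were those of Rps27rt (1.12), Rps19bp1 (0.16) and Rpl22l1 (0.03). Rps27rt had its own order of sections, with Dp16 lowest at 65.4 CPM, then 5xFAD at 84.7, wild-type at 98.6 and 5xFAD-Dp16 at 127. The Dp16 section was lowest in 11 of 12 regions and 5xFAD-Dp16 highest in 11 of 12. This order was had by 2.36% of all genes and by no other member. The 3 names with -ps that the rule left out showed it as well: Rpl10-ps3 (34.7, 23.2, 30.8 and 43.7 CPM in section order), Rpl9-ps6 (38.9, 34.5, 36.2 and 53.5) and Rpl36a-ps1 (4.66, 3.76, 4.26 and 6.55). Their parent genes were not of that order: Rpl10 was at 568, 684, 698 and 634 CPM, Rpl9 at 1493, 1597, 1617 and 1784, Rpl36a at 541, 658, 714 and 681, and Rps27 at 1205, 1408, 1627 and 1352. Near-identical copies can exchange reads with their parents, and how the counting treated them was not tested.

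Other parts of the translation apparatus were read from fixed lists, and their medians are given for the 2 Dp16 pairs and then the 2 5xFAD pairs, the pair with wild-type first in each. Of the ribosome proteins with other names, Fau, made as a fusion with a ubiquitin-like domain, was at 1636, 1782, 1899 and 2099 CPM in section order. Its relative ratios were 0.26, 0.22, 0.30 and 0.26, close to the members' medians or above them. Rack1, a scaffold on the small subunit, was at 304, 325, 337 and 326 CPM.

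The 38 initiation factors had medians of 0.05, -0.03, 0.08 and 0.02, and their most abundant members Eif1, Eif4a2 and Eif4g2 were at 1041 to 1095, 533 to 588 and 314 to 357 CPM. The 11 elongation and termination factors had 0.12, 0.04, 0.11 and 0.06. Eef1a1, which brings aminoacyl-tRNA to the ribosome, was at 1885, 1973, 2072 and 2018 CPM in section order, Eef2, the translocase, at 490 to 517 CPM and Eif5a at 474 to 515 CPM. The 39 ribosome assembly factors had 0.07, -0.05, 0.07 and -0.02, led by Nop10 (236 to 293 CPM), Npm1 (195 to 215 CPM) and Polr1d (169 to 209 CPM). The initiation and assembly lists thus lay nearer to the median gene than the ribosomal proteins did, which was not tested.

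The 15 other mRNAs known to carry the TOP motif had medians of 0.17, 0.07, 0.17 and 0.07. Tpt1, the translationally controlled tumor protein, was at 1356, 1548, 1601 and 1593 CPM in section order and Naca, which binds nascent chains, at 469, 518, 508 and 553 CPM. The 78 mitochondrial ribosomal protein genes had 0.21 and 0.20 in the Dp16 pairs and 0.11 and 0.09 in the 5xFAD pairs. Mrps33, Mrps21 and Mrpl20 were their most abundant members, at 279 to 337, 247 to 281 and 220 to 248 CPM, and Mrps6, a gene of chromosome 16, had the highest ratios of that list in the Dp16 pairs (1.12 and 0.92). These medians describe single sections and carry no test.

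Region by region, the ribosomal protein share was highest in the region labelled CNU in all 4 sections, at 11.7, 11.6, 11.9 and 12.2% in section order. Hypothalamus had 11.5, 10.5, 11.3 and 11.95%, and FB had 9.44, 9.97, 11.6 and 11.7%. VL had 8.62, 8.12, 7.71 and 8.88% and was last in Dp16 and 5xFAD. Thalamus, given above, was last in wild-type, and Cortex AUC was last in 5xFAD-Dp16. Other low regions were Cortex AUC with 7.66, 8.75, 8.69 and 8.17% and Cortex RSP, IL with 7.37, 8.54, 8.96 and 8.63%. CNU did not overlap with any neocortical label, while Hypothalamus, FB and Cortex CTXsp overlapped with each other. The submitters' region names were not expanded here, but FB carried 21020 to 27873 CPM of 9 oligodendrocyte markers, against 1995 to 2699 in Cortex CTXsp. VL carried 141970 to 257492 CPM of choroid plexus and ependyma markers, and FB carried 8350 to 33405 CPM of them. These markers also ran from 1853 to 74815 CPM in CNU, lowest in wild-type, and their part in the ribosomal share there was not tested.

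**Figure D3:**
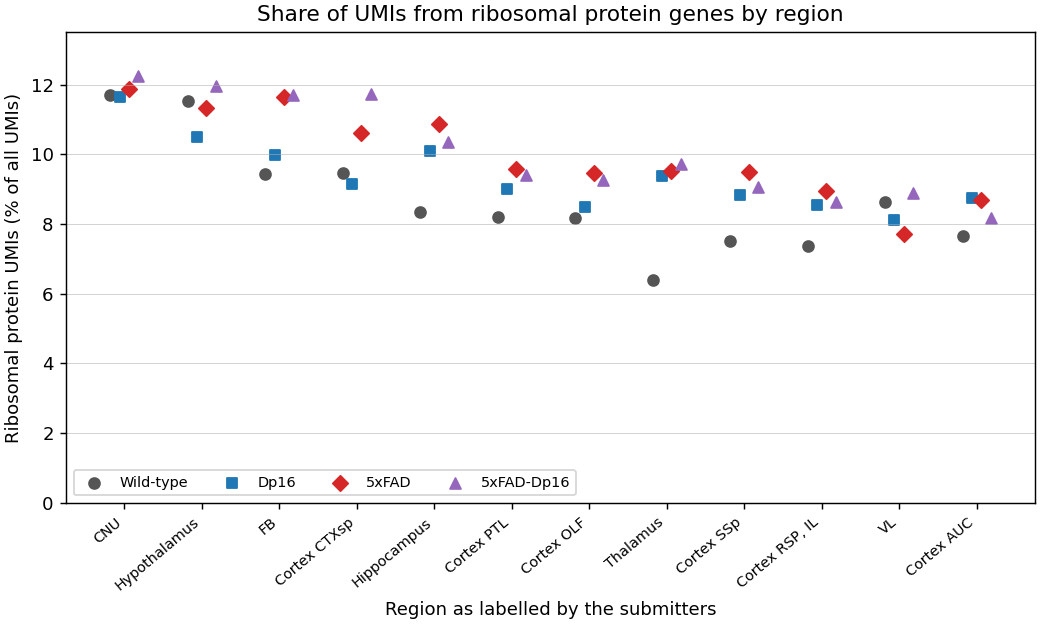
Percent of UMIs from the 85 members in each of 12 regions, with 1 mark per section. CNU is highest in all 4 sections (11.6 to 12.2%), and the wild-type Thalamus (6.40%) is the lowest value drawn.

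Each region was then tested against the mean of the other 11, with the 4 sections as replicates and the section as a block, by edgeR's quasi-likelihood test with Benjamini-Hochberg adjustment over 13167 genes at 0.05. The sections differ in genotype, so differences of a region between genotypes enter the residual. In CNU 78 of 83 members were higher and none lower (9.7% of all genes higher, 8.36% lower), with a median log2 fold change of 0.40. In Hypothalamus 76 were higher and none lower (28.2% and 18.9%), with a median of 0.36. Cortex CTXsp had 39 higher and 1 lower (14.7% and 8.94%), and FB had 38 higher and 4 lower (27.3% and 28.3%).

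Isocortical labels and the thalamus lay on the other side. Lower were 77 members in Cortex AUC (11.7% of all genes), 63 in Cortex RSP, IL (5.73%), 47 in Cortex SSp (7.64%) and 25 in Cortex PTL (8.74%), and 0 were higher in any of the 4 (16.7%, 9.48%, 12.1% and 11%). In Cortex OLF 38 were lower and 1 higher (16.9% and 20.8%). In Thalamus 49 were lower and 0 higher (19.2% and 28.4%). Without the wild-type section 27 were lower, beside 2393 of 13083 genes, and without Dp16 73 were, beside 2711 of 13103. In Hippocampus 19 were higher and 0 lower (18.6% and 14.1%), a count close to the background. It became 6 without 5xFAD-Dp16 (1865 of 13195 genes) and 8 without Dp16 (1996 of 13103). Without 5xFAD it was 10 (2038 of 13503), and without wild-type 20 (1970 of 13083). In VL 19 were higher and 19 lower (28.1% and 30.1%), both below the share of all genes.

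The members did not move as 1 block in FB. Highest were Rplp0, Rps12 and Rpl22. Rplp0 was at 619, 663, 793 and 792 CPM in section order, with a log2 fold change of 0.61 ± 0.05 (SE, edgeR adjusted p = 8.5e-14). Lowest were Rpl22l1, Rps19bp1 and Rpl36al. Rpl22 is known to repress its paralogue Rpl22l1, and the 2 went opposite ways there. A link between their levels was not tested. Rpl22 was at 576, 614, 777 and 851 CPM in FB and was higher by 0.56 ± 0.05 (edgeR adjusted p = 1.1e-12), while Rpl22l1 was at 426, 472, 446 and 439 CPM, with a log2 fold change of -0.74 ± 0.09 (edgeR adjusted p = 1.0e-09). In each of the 4 sections Rpl22 was above Rpl22l1 in FB in CPM.

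In Hypothalamus Rpl22l1 was above Rpl22 in CPM, as it was in each whole section, and only Rpl22l1 passed the test. Rpl22l1 was at 1273, 964, 938 and 1092 CPM and was 0.74 ± 0.07 higher than the mean of the other regions (edgeR adjusted p = 2.8e-11), the highest of the members. Rpl22 was at 429, 436, 482 and 539 CPM, with 0.03 ± 0.05 (edgeR adjusted p = 0.64). Across the other regions Rpl22l1 passed the test upward in CNU and Cortex CTXsp and downward in Cortex AUC, Cortex RSP, IL and VL, while Rpl22 passed it upward in CNU, Hippocampus and VL and downward in Thalamus and in Cortex AUC, OLF, PTL, SSp and RSP, IL. Both thus went up in CNU and down in Cortex AUC and Cortex RSP, IL, and they went opposite ways in VL. Rpl3, part of the peptidyl transferase center, was also among the 3 highest in Hypothalamus, at 0.65 ± 0.06. Rps19bp1, Rpl29 and Rpl22 were the 3 lowest there and did not pass.

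Rps27l gave the largest single value among the members. In VL it was at 217, 370, 334 and 365 CPM in section order, against 70.0 to 139 CPM in CNU and 73.2 to 85.8 CPM in Cortex AUC. The VL values did not overlap with those, and the log2 fold change was 1.84 ± 0.08 (edgeR adjusted p = 6.0e-23). Rpl7, Rpl41, Rpl22 and Rplp0 were also higher in VL, by 0.52, 0.53, 0.51 and 0.54. Rpl37 and Rps29 were lower there by log2 fold changes of -0.44 and -0.36. VL spots had 5.14 to 8.53% mitochondrial UMIs, the lowest range of the 12 regions.

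In Hippocampus the highest members were Rps28 (0.33 ± 0.08, edgeR adjusted p = 0.00053) and Rps29 (0.29 ± 0.08), and the lowest, Rpl7l1, Rpsa and Rpl8, did not pass. In Thalamus Rpl41 was lowest, with -0.49 ± 0.07 (edgeR adjusted p = 2.3e-07), then Rpl29 with -0.46 ± 0.06 and Rps2, which bears on decoding accuracy, with -0.44 ± 0.07. Rps6, the ribosomal protein phosphorylated by S6 kinases, Rpl13a and Rpsa lay at 0.07, 0.04 and 0.03 and did not pass. In CNU the leading genes were Rps27 (0.73 ± 0.08), Rps19 (0.73 ± 0.08) and Rplp1 (0.72 ± 0.07). Rplp1 was at 5742, 5294, 5000 and 5362 CPM there, above its 2847 to 3320 CPM in Cortex AUC in every section.

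**Figure D4:**
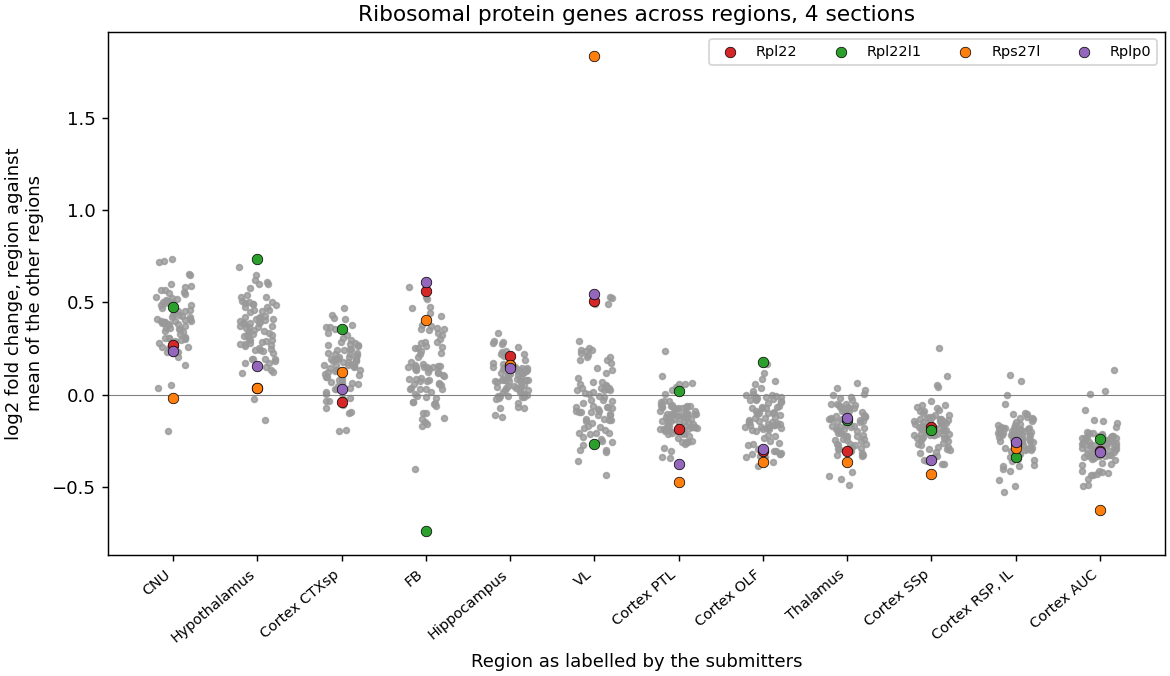
log2 fold change of each of the 83 members in a region against the mean of the other 11 regions, with regions ordered by the members' median. Grey points are members, and the colored points show Rps27l at 1.84 in VL and Rpl22 and Rpl22l1 apart in FB (0.56 and -0.74).

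Among the other translation lists, the 15 TOP mRNAs outside the ribosome lay on the members' side in many regions. Many of them are also in the elongation, initiation or assembly lists. They were higher in CNU (10 higher and 1 lower, median 0.21), Hypothalamus (12 and 1, median 0.38) and FB (8 and 2, median 0.14). In Cortex AUC 0 were higher and 10 lower (median -0.23), and the medians in Cortex PTL, SSp, OLF and RSP, IL were -0.18, -0.17, -0.14 and -0.12. In Cortex CTXsp, where the members' median was 0.16, theirs was -0.03. It was -0.04 in Thalamus and 0.18 in VL, where the members had -0.17 and -0.03. The 3 ribosome proteins with other names had medians of 0.39 in CNU, 0.19 in Hypothalamus, -0.16 in Thalamus and -0.09 in VL. In CNU, beside 9.7% of all genes higher and 8.36% lower, 6 of 38 initiation factors were higher and 2 lower (median -0.03), and 4 of 11 elongation and termination factors were higher and 2 lower (median -0.05). In Hypothalamus, beside 28.2% and 18.9% of all genes, 7 of 11 elongation and termination factors were higher and 1 lower, and 46 of 78 mitochondrial ribosomal protein genes were higher and 2 lower. In FB, beside 27.3% and 28.3%, 3 of the 78 were higher and 52 lower, while the cytosolic members had a median of 0.14.

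Within the hippocampus the levels followed the layers. This comparison was chosen after the data had been seen and has no test. The cell layers labelled CA1_sp, CA3_sp and DG_sp, where principal neurons have their cell bodies, had a lower ribosomal protein share than CA1_so, CA1_sr and CA1_slm together, CA3_so and CA3_sr together, and DG_mo, in every section. In CA1 it was 6.84, 8.26, 7.03 and 6.85% of UMIs in CA1_sp in section order, and 9.14, 11.92, 12.75 and 11.97% in CA1_so, CA1_sr and CA1_slm together. In CA3 it was 6.08, 6.20, 6.14 and 6.82% in CA3_sp and 8.23, 9.91, 10.6 and 11.1% in CA3_so and CA3_sr. In DG it was 8.56, 9.89, 10.5 and 9.94% in DG_sp and 10.1, 12.9, 13.8 and 12.5% in DG_mo. The cell layer and these neighbors did not overlap in any of the 3 fields within a section. Another DG layer, DG_po, was left out of this comparison. It had 8.05, 10.36, 10.46 and 10.33% in section order, below DG_sp in wild-type, level with it within counting error in 5xFAD and above it in the other 2.

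Relative to all genes measured there, 69 to 81 of 83 members were lower by 1.2-fold or more in the cell layer in the 12 comparisons of 3 fields and 4 sections. For all genes the share was 34.9, 36.5, 37.6 and 36.8% in CA1, 34.1, 35.5, 38.3 and 34.8% in CA3, and 34.9, 39, 35.6 and 37.5% in DG. The members' medians ran from -1.31 in CA1 of 5xFAD-Dp16 to -0.63 in DG of wild-type. Lower in all 12 were 66 of 83 members, against 5.56% of the 6641 genes with a ratio in all 12. Rps29 was the most depleted, at 1373, 1867, 1483 and 1166 CPM in CA1_sp against 3442, 4881, 5966 and 4137 CPM in the other CA1 layers, with relative log2 ratios from -2.51 to -1.65 over the 12 comparisons. Rps27, Rpl39, Rps21 and Rps28 followed with median ratios of -1.80, -1.62, -1.61 and -1.60.

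At the other end, Rps19bp1 was above the median gene in the cell layer in all 12 comparisons, at 70.6, 90.8, 105 and 135 CPM in CA1_sp against 38.9, 54.7, 42.4 and 37.3 CPM around it. Rpl4 and Rpl5 were the least depleted of the ribosome's own proteins, with median ratios of -0.15 and -0.23. Rpl4 was at 866, 818, 1012 and 971 CPM in CA1_sp and at 698, 763, 793 and 778 CPM in the neighboring layers, so its own level was higher in the cell layer. Both also ranked among the members with the lowest ratios between genotypes.

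The cell layers also differed in depth and RNA make-up. CA1_sp spots had medians of 19292.5 to 26454 UMIs, against 5749 to 11251 in the 3 layers around it, and 4.05 to 6.89% mitochondrial UMIs against 14.96 to 35.9%. As a share of UMIs outside mitochondrial genes, the members took 7.15 to 8.87% in CA1_sp and 10.3 to 19.7% in the layers around it, so the difference was larger on that scale. The 10 glutamatergic neuron markers summed to 9699 to 10883 CPM in CA1_sp and 3895 to 5625 CPM around it. The part of depth was not tested.

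**Figure D5:**
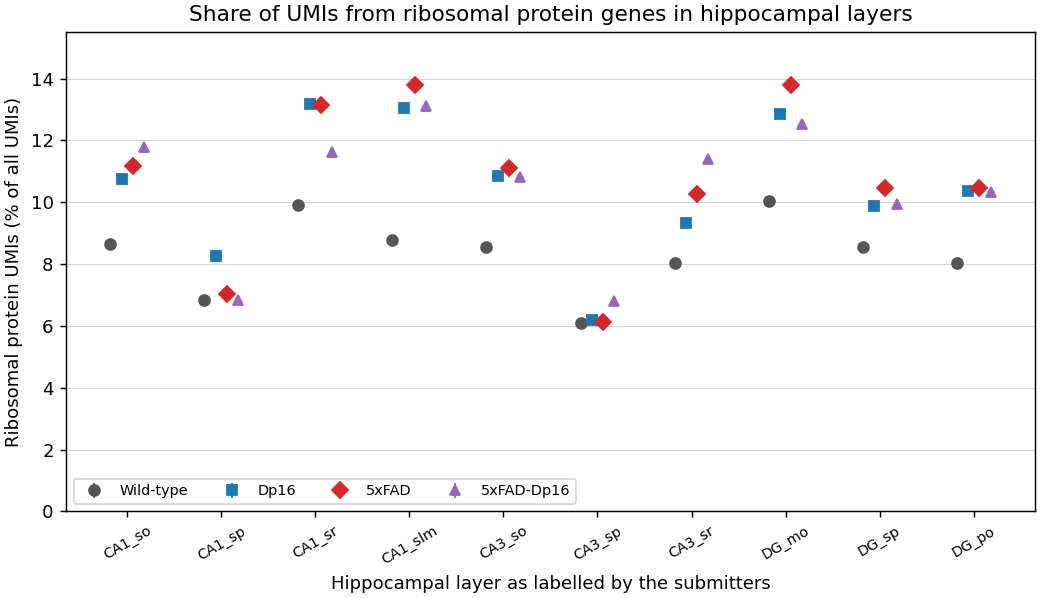
Percent of UMIs from the 85 members in 10 hippocampal layers, with 1 mark per section and 95% exact binomial intervals that are mostly hidden by the marks. CA1_sp and CA3_sp lie below the layers beside them in all 4 sections, with CA3_sp at 6.08 to 6.82%.

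Amyloid plaque marks were deposited for the 2 sections with the 5xFAD transgenes, and plaque spots were set against unmarked spots of the same region. Ribosomal protein genes as a group were level there. The members' median relative log2 ratio was 0.02 in 5xFAD (310 plaque spots in 10 regions) and -0.03 in 5xFAD-Dp16 (380 spots in 11 regions). In 5xFAD 0 members were higher by 1.2-fold and 0 lower (11.7% and 14.8% of all genes), and in 5xFAD-Dp16 1 was higher, Rplp0, and 1 lower, Rpl22l1 (12.3% and 15.1%). The median in 5xFAD was -0.0041 with at least 20 spots of each kind. The 9 microglia markers summed to 1805 CPM in plaque spots of 5xFAD against 770 expected from unmarked spots, and to 1698 against 757 in 5xFAD-Dp16.

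Single members lay on the same side in both sections. Rplp0 was at 568 CPM in plaque spots against 494 expected in 5xFAD and at 586 against 480 in 5xFAD-Dp16, with relative ratios of 0.23 (0.15 to 0.30) and 0.28 (0.22 to 0.35). Rpl22 (0.20 and 0.19), Rps4x (0.11 and 0.21), Rpl7a (0.11 and 0.10) and Rps9 (0.10 and 0.09) came next. Rpl22l1 was at 660 CPM against 761 expected and at 718 against 865, with -0.18 and -0.27. Rps27 (-0.11 and -0.23), Rps27l (-0.11 and -0.11), Rps29 (-0.10 and -0.20) and Rps19 (-0.09 and -0.19) were the next lowest, and the counting interval of Rps27l included 0 in both sections. Oligodendrocyte markers were at 6194 CPM against 6259 expected in 5xFAD and at 5995 against 4951 in 5xFAD-Dp16, and their part in these values was not tested.

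Above the median gene in both sections were 28 members (33.7%, against 30.2% of all genes), and below it in both were 34 (40.96%, against 30.1%). By region, the ribosomal protein share of plaque spots was above that of unmarked spots in 6 of 10 regions in 5xFAD and in 4 of 11 in 5xFAD-Dp16. In Thalamus it was 9.32% in plaque and 9.84% in unmarked spots of 5xFAD, and 9.05% and 10.2% in 5xFAD-Dp16. In Cortex AUC the order was the reverse, with 9.95% and 8.49%, and 8.56% and 8.14%. Spots marked as neighbors of plaques had member medians of -0.06 in 5xFAD and -0.10 in 5xFAD-Dp16, and 0 members were higher or lower by 1.2-fold in either (7.03% and 9.79% of all genes in 5xFAD, 6.73% and 9.65% in 5xFAD-Dp16). The shift was small but went 1 way. Only 2 of 83 members in 5xFAD and 5 in 5xFAD-Dp16 lay above the median gene. Below it beyond counting error were 52 and 70 members, against 719 of 11031 and 956 of 11032 genes. Counting error is smaller for abundant genes, as most members are, so these counts are not like for like. Genes of like abundance were not set apart here. The members took 9.72% of UMIs against 10.19% expected in 5xFAD, and 9.64% against 10.21% in 5xFAD-Dp16.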

How the data were processed

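The deposited values are raw UMI counts per gene and spot. Space Ranger, Seurat and mm10 are named per the submitters' processing notes, without versions. The deposited spot table gave each spot's section, region, hippocampal layer, expression cluster, plaque mark and mitochondrial percent. The sources used here do not say how these labels were made. Every deposited spot was kept, no doublet caller was run, and spots were never used as replicates.

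Section sums of the counts were converted to CPM. Genes of at least 5 CPM on average entered ratios between sections, which carry exact conditional binomial intervals (95%, counting error only). Past 1.2-fold (log2 0.263) a gene was counted as higher or lower. Shares have exact binomial (Clopper-Pearson) intervals. UMIs in plaque spots were set against those expected from unmarked spots of the same region, using regions with 10 or more spots of both kinds. Hippocampal layer ratios used genes with at least 40 UMIs in both layers together over the 4 sections.

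Regions with at least 30 spots in every section (12 of 17) were tested on counts summed per section and region by edgeR with TMM factors, filterByExpr and the section as a block. DESeq2 was an alternative. The fit was tested on simulated data for the Thalamus contrast: of 12551 genes, it called 0.065% of unchanged ones, 77.6% of those changed 1.5-fold and 97.9% of those changed 2-fold. The simulated counts had the same dispersion for every gene and no difference between sections other than depth. The ratio intervals held the true value for 95.3% of unchanged genes in Dp16 over wild-type (11033 genes). These were simulated Poisson counts, the model that the intervals assume. Neither simulation held differences between animals, so neither bears on that spread.

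The members and gene lists were chosen with earlier results of these data known. Named genes are the 4 most abundant of each subunit, Rpsa and Rplp0 to Rplp2, paralogues and other proteins of at least 5 CPM, the 5 highest and 5 lowest in both pairs of each effect and in plaque spots, the 3 highest and 3 lowest of the Hippocampus, Thalamus, Hypothalamus and FB contrasts and of the double difference, and the 3 most abundant genes of each translation list. Of the highest and lowest ratios of those lists, also in the rule, only Mrps6 is printed. A few genes that the rule names are not reported here. Genes named outside the rule, as in CNU, VL and the layers, were chosen after their values were seen. Tools were Python 3.11.15, numpy 2.4.6, scipy 1.17.1, pandas 2.3.3, matplotlib 3.10.9, R 4.3.3, edgeR 4.0.16 and DESeq2 1.42.0.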

Additional observations from a re-analysis of the deposited data

Results flagged for a closer look

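The 3 members Rpl35, Rps29 and Rps27rt went opposite ways, past 1.2-fold, in the 2 pairs that read the same genotype effect. The difference was not tested, since each genotype has 1 section. How many of all genes went opposite ways like this was not counted. Double differences at or below -0.5 were had by 4.82% of the members and 4.37% of all genes, and those at or above 0.5 by 1.2% and 2.9%. Rpl35 was at a relative log2 ratio of 0.83 in Dp16 over wild-type and -0.57 in 5xFAD-Dp16 over 5xFAD, and at 0.78 in 5xFAD over wild-type and -0.61 in 5xFAD-Dp16 over Dp16. Rps29 was at 0.33 in Dp16 over wild-type and -0.31 in 5xFAD-Dp16 over 5xFAD. Rps27rt was at -0.46 in Dp16 over wild-type and 0.66 in 5xFAD-Dp16 over 5xFAD.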

How the results depend on the processing

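Scaling moved the size of the members' medians between sections and not their sign, in the settings given here. Single members could change sign: Rpl5 in Dp16 over wild-type was at 0.11 relative to the median gene and at -0.02 uncentered. In Dp16 over wild-type the members' median was 0.21 with uncentered TMM factors, 0.15 with uncentered totals without members and mitochondrial genes, 0.12 without centering on the median gene, 0.24 when regions were standardised, 0.16 without Thalamus and 0.24 without clusters 12 and 13 (both added after seeing the data). In 5xFAD over wild-type it was 0.23, 0.20 and 0.18 for the first 3 of these and 0.19 without Thalamus, and in 5xFAD-Dp16 over 5xFAD 0.054 with those totals and 0.046 uncentered. Counts of members higher at 1.1-fold and 1.5-fold were 79 and 1 in Dp16 over wild-type, 38 and 1 in 5xFAD-Dp16 over 5xFAD, 78 and 2 in 5xFAD over wild-type and 45 and 1 in 5xFAD-Dp16 over Dp16, against 27.7 and 3.11%, 23.3 and 0.915%, 22.7 and 2.38%, and 20 and 1.29% of all genes. Uncentered at 1.2-fold they were 5, 1, 18 and 1 of 83, against 6.59, 3.75, 5.72 and 4.94% of all genes. Only the count in 5xFAD over wild-type was above that share. Without Thalamus they were 5 in Dp16 over wild-type (12.3% of all genes), 19 in 5xFAD over wild-type (9.23%), and 5 in 5xFAD-Dp16 over Dp16 (7.13%). The section shares, in section order, were 8.39, 9.26, 9.89 and 9.99% in spots of at least 5000 UMIs, 9.88, 10.97, 11.59 and 11.74% outside mitochondrial genes and 8.56, 9.46, 10.16 and 10.26% with regions standardised. Without Thalamus they were 8.98% in wild-type, 10.05% in 5xFAD and 10.11% in 5xFAD-Dp16.

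For plaque spots, no matching by region gave medians of 0.037 in 5xFAD and -0.073 in 5xFAD-Dp16. The 5xFAD median was -0.0041 with at least 20 spots of each kind and -0.0027 uncentered, both on the other side of zero from the reported value. The cause was not tested. In the region tests the count of higher members in Hippocampus was 12 with DESeq2 size factors in edgeR (2233 of 13167 genes). It was 12 without the filter on low counts (2512 of 19090). Leaving out 1 section at a time gave 6 to 20 there, beside 1865 to 2038 of all 13083 to 13503 genes tested. It gave 27 to 73 lower members in Thalamus, beside 2163 to 2711 of all genes. Higher were 53 to 73 members in Hypothalamus and 30 to 49 in FB, beside 2654 to 3369 and 3293 to 3582 of all genes. No paired analysis was possible because each genotype has 1 section, numbered in accession order. Depth limited Rpl3l and Rpl39l, which had 6 to 19 and 10 to 13 UMIs per section.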
